A study of Homo sapiens with 17 samples.

Results

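The late-annotated microRNA hairpins are the rows of the rescue table whose miRBase number is 1200 or higher and whose mean over the 15 rescue libraries was 10 scaled reads or more. Of 777 hairpins with such a number, 108 reached that mean, and 13 of these were left out by name. The remaining 95 hairpins (79 names, since some names have several entries, called copies here) are described, of 1282 hairpins in the table. In all, 336 hairpins (277 names) reached the same mean and were tested. A scaled read is a read count multiplied by 1 factor per library, as the authors deposited it. The mean over all libraries chose the members, so their overall level is a description and carries no test. A few members reached the minimum through 1 group: over the other 12 libraries the mean was under 10 for 7 members without mock, 4 without WT, 2 without C352A, 3 without P351A plus ALA and none without P351A. A difference in the direction of that group is in part chosen by the rule, and it is given beside those members below. The 3 members just inside the minimum were mir-4742 (10.1), mir-6807 (10.2) and mir-6892 (10.4). The 3 numbered hairpins just outside it were mir-2110 (9.83), mir-1229 (9.62) and mir-4661 (9.44). Of the 95, 54 had a mean of 10 or more in all 5 rescue groups and 1 in a single group.

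Small RNA was sequenced from HCT116, a human colon carcinoma cell line. A parental library stood beside a library of DGCR8ΔCTT cells, called dCTT here, in which CRISPR-Cas9 had removed the CTT domain of DGCR8 and which the labels call a functional knockout. The 15 rescue libraries were all made from DGCR8ΔCTT cells, in 5 groups of 3, so that the deletion was shared by every group. The groups were a mock rescue, a rescue with wild-type DGCR8 (WT), a rescue with the C352A form, a rescue with the P351A form, and the P351A rescue with ALA, an agent the labels leave unexplained. The labels do not say whether the DGCR8ΔCTT cells are 1 clone, how the DGCR8 forms were expressed or at what level, or what dose and time of ALA was used. Whether replicates came from separate cultures is not stated either, so each p-value reflects the spread of these libraries alone, which may be technical.

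MicroRNAs are usually cut out of long primary transcripts by Microprocessor, the nuclear complex of the RNase DROSHA and its RNA-binding partner DGCR8, which binds heme, and the hairpin is then trimmed by DICER. Mirtrons take another route: an intron end made by splicing replaces the DROSHA cut, on both sides in a mirtron proper and on one side in a tailed mirtron. miRBase numbers hairpins in the order of their registration, so high numbers mark hairpins found late, mostly by deep sequencing. Many of these are scarce, many lie in introns, and some lie in or resemble transfer, ribosomal or small nuclear RNA.

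Reads summed over hairpins ranged from 146023 to 587214 for mock, 660126 to 1470755 for WT, 199133 to 1023184 for C352A, 1666688 to 2175294 for P351A, and for P351A with ALA from 1191542 to 1941805. One read was worth 3.22 scaled reads in mock library b and 0.405 to 0.488 in the P351A libraries, so a low member is measured more coarsely in mock than in P351A. All 8 colon epithelium hairpins checked were above 0 in every library, the lowest at 1.41 scaled reads. The liver hairpin mir-122 was at 0 in 12 of 15 libraries and the neuronal mir-124 hairpins were not listed. Other hairpins checked went the other way: the endothelial mir-126 held 231 to 2148 in every library and the stromal mir-143 14.1 to 154. The stromal mir-145 was at 0 in 1 library, and the blood hairpins mir-451a and mir-144 in 3 and 6. No cell type is named from these markers. The embryonic stem cell hairpin mir-373 was at 0 in all 6 P351A and P351A plus ALA libraries and between 1038 and 5176 scaled reads in the other 9. The myeloid hairpin mir-223 was likewise at 0 in those 6 libraries and between 5.42 and 31 in the other 9. Results that set P351A against WT or mock cross this difference, and its part in them was not tested. In bulk RNA, fewer cells with a small RNA and less of it per cell cannot be told apart.

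Mature sequences were taken from RefSeq (GRCh38.p14), where 82 of the 95 members were matched. The 13 unmatched members are mir-1254-2, mir-1538, mir-3143, mir-3609, mir-3648-1, mir-3687-1, mir-3687-2, mir-4286, mir-4461, mir-6087, mir-6847, mir-6850 and mir-7705. The deposited values are per hairpin and do not say which arm the reads came from. Sequences are written 5′ to 3′ with the seed, bases 2 to 8, in capitals. The 3p arms below end at or within 3 bases of the 3′ end of an annotated intron, and the last 2 bases are also in capitals where they are AG, the last bases of most introns.
miR-5010-3p: uUUUGUGUcucccauuccccAG
miR-6894-3p: uUGCCUGCccucuuccuccAG
miR-6770-3p: cUGGCGGCugugucuucacAG
miR-6859-3p: uGACCCCCaugucgccucuguAG
miR-3620-3p: uCACCCUGcaucccgcacccAG
miR-3605-3p: cCUCCGUGuuaccuguccucuAG
miR-4742-3p: uCUGUAUUcuccuuugccugcAG
miR-1224-3p: cCCCACCUccucucuccucAG
miR-6807-3p: cACUGCAUuccugcuuggcccAG
miR-6832-3p: aCCCUUUUucucuuucccAG
miR-6511a-3p: cCUCACCAucccuucugccugc
miR-6511b-3p: cCUCACCAccccuucugccugca

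The next set holds mature sequences of members that lie away from intron ends and whose level differed most between WT, mock and C352A, with mir-7974, the second most abundant member.
miR-1307-3p: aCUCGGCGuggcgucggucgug
miR-1307-5p: uCGACCGGaccucgaccggcu
miR-2467-3p: aGCAGAGGcagagaggcucagg
miR-2467-5p: uGAGGCUCuguuagccuuggcuc
miR-3613-5p: uGUUGUACuuuuuuuuuuguuc
miR-3065-5p: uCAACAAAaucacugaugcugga
miR-3200-3p: cACCUUGCgcuacucaggucug
miR-1287-5p: uGCUGGAUcagugguucgaguc
miR-1303: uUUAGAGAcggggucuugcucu
miR-7974: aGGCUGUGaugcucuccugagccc

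The last set shows miR-4517, which was near 0 in P351A alone. It also shows members with an entry that were listed, from general knowledge, as resembling another stable RNA. These are miR-1246 (U2 small nuclear RNA), miR-4454 and miR-1260b (transfer RNA), miR-3648 (ribosomal RNA precursor) and miR-4485-3p (mitochondrial ribosomal RNA).
miR-4517: aAAUAUGAugaaacucacagcugag
miR-1246: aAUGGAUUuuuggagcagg
miR-4454: gGAUCCGAgucacggcacca
miR-1260b: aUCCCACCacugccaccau
miR-3648: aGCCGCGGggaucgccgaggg
miR-4485-3p: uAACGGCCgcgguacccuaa

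The 82 matched members gave 105 distinct mature sequences with 102 seeds. Only 3 seeds were shared by different sequences: CUCACCA by miR-6511a-3p and miR-6511b-3p, AGGCAGA by miR-1910-3p and miR-6511a-5p, and GUCCUCU by miR-3909 and miR-6852-3p. The members are therefore almost all unrelated by seed. Of 11 names with several copies, the copies of 7 (mir-3648, mir-3687, mir-4435, mir-6511a, mir-6770, mir-6859 and mir-6862) held identical reads. Those of mir-1285, mir-3158, mir-3913 and mir-6511b differed in part of their reads. The entries of mir-3158 lie on opposite strands of a single locus, as do those of mir-3913. Copies are no independent measurements, so the main counts are given as hairpins and as names below. The names mir-6511a and mir-6511b also held nearly the same read counts, yet they count as separate names. Medians are taken over hairpins, copies included, so a name with several copies weighs more in them.

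Many of the members end where an intron ends, which few other hairpins tested did. Of the 82 members with a position, 31 (37.8%, 22 names) had the 3′ end of their mature sequence within 5 bases of an annotated intron's 3′ end in GENCODE release 29, and 21 of them at the exact base. Among 220 other hairpins tested with a position, 2 (0.909%) did. The largest distance inside this class was 3 bases and the next hairpin lay 13 bases away. mir-6511a-2, whose entry holds the 5p arm only, lay 40 bases away by this measure and is counted elsewhere. The other 3 copies of mir-6511a, which hold the same reads, lay 2 bases away. These reads therefore count in both classes wherever the classes are set side by side. In the same way mir-3648-1 has no position and mir-3648-2 is counted elsewhere, so their identical reads count in both of those classes. The 3p arms of this class were rich in pyrimidines, as the stretch before a 3′ splice site is: the median C and U content was 75.6% (57.1 to 90.5%, 22 arms) and 16 of 22 arms ended in AG. The 3p arms of members elsewhere had a median of 50% (20 to 68.2%, 23 arms), and 1 of 23 ended in AG. The class was defined by position alone, after the values had been seen, so it is described by counts and medians.

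Host genes of the 3′ splice site class included widely expressed genes. mir-3605 (chr1:33332393-33332492, minus strand) lies in an intron of PHC2, a Polycomb gene. mir-3620 (chr1:228097263-228097341, plus strand) lies in ARF1, a vesicle transport GTPase gene, and mir-5010 (chr17:42514188-42514307, plus strand) in an intron of ATP6V0A1, a proton pump subunit gene. mir-6894 (chrX:53198889-53198945, minus strand) lies in an intron of KDM5C, a histone demethylase gene. The 4 copies of mir-6859 lie in introns of WASH pseudogenes and related loci, the copies of mir-6511b in PKD1 and its pseudogene, and those of mir-6862 in EIF3C and EIF3CL. Both intron ends bounded 2 members: mir-1224 (chr3:184241405-184241489, plus strand) in VWA5B2 and mir-6807 (chr19:58550285-58550376, plus strand) in TRIM28. The intron's 5′ end alone bounded mir-4745 in PTBP1, a splicing factor gene. It is counted elsewhere, since the class was set by 3′ ends alone. Of the members elsewhere, mir-1307 (chr10:103394253-103394401, minus strand) overlaps an exon and an intron of ATP5MD, mir-2467 lies in an intron of HDAC4, mir-1287 in an exon of PYROXD2, mir-3613 in DLEU2, the host of mir-15a and mir-16-1, and mir-4517 (chr16:28958583-28958661, plus strand) overlaps an exon and an intron of NFATC2IP. In all, 17 members lay outside annotated genes.

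Most members were scarce. The median of their mean levels was 25.2 scaled reads, against 249.8 for the 241 other hairpins tested, 39 were under 20, and 7 had a library at 0. Only 10 had a mean over 100, and mir-1307, with 2812, was the highest by far; mir-7974 followed with 294. The other names over 100 were mir-4286, mir-3605, mir-4454, mir-4435 (both copies), mir-1254-2, mir-6886 and mir-3928. The summed members held 1.13 to 1.46% of all reads of the mock libraries and 0.546 to 0.639% of those of WT. For C352A this share was 0.730 to 1.09%, for P351A 0.461 to 0.526%, and for P351A with ALA 0.802 to 0.926%. Mock lay above every other group in every library, and the WT libraries lay above those of P351A. Without mir-1307 the share was 0.811 to 1.23% for mock and 0.591 to 0.927% for C352A, which then overlapped. It was 0.332 to 0.376% for WT, 0.298 to 0.341% for P351A and 0.296 to 0.457% with ALA, and these 3 groups overlapped as well. These shares count every copy, in the members and in the total. The summed level of the 31 hairpins of the 3′ splice site class, in scaled reads and not in shares, was 1169 to 1940 for mock, 1065 to 1233 for WT and 837 to 1127 for C352A. It was 600 to 723 for P351A and 1411 to 1952 with ALA. With 1 copy for each of the 22 names the sum was 810 to 1318 for mock, 755 to 897 for WT, 592 to 828 for C352A, 428 to 509 for P351A and 845 to 1346 with ALA. P351A was lowest in both sums and overlapped no other group in either.

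**Figure D1:**
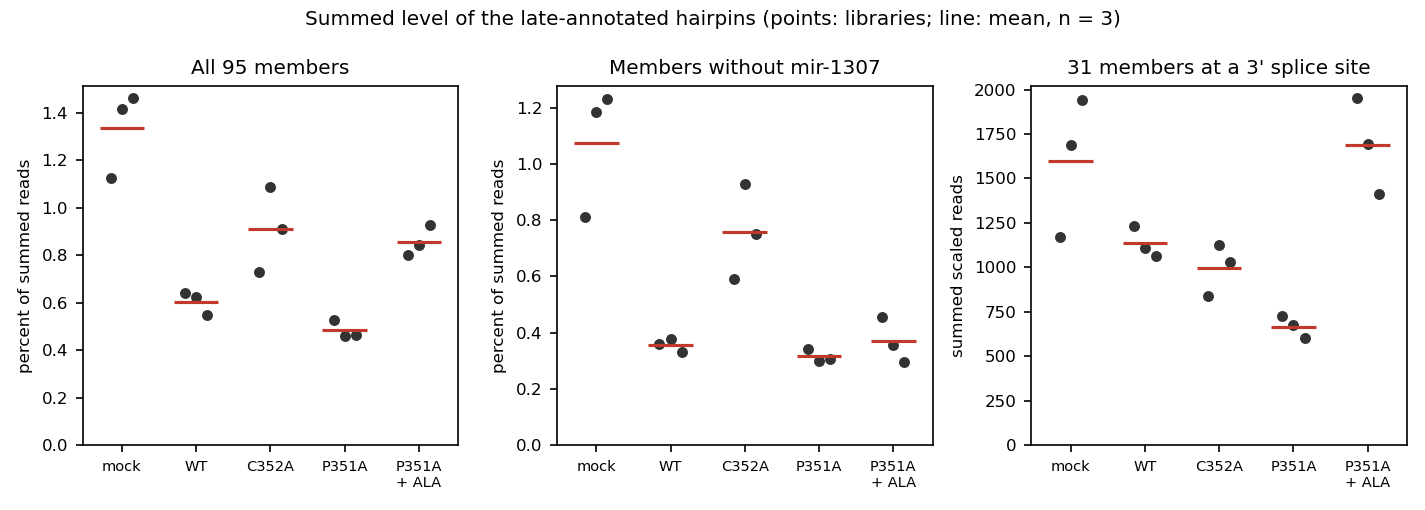
Summed level of the 95 members in each library by group: the percent of all summed reads with and without mir-1307 (left and centre) and the summed scaled reads of the 31 members at a 3′ splice site, every copy counted (right). Points are libraries and lines are means (n = 3). The mock libraries hold the highest share, 1.13 to 1.46%, and the P351A libraries the lowest sum at 3′ splice sites, 600 to 723 scaled reads.

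The abundant members differed in how they varied. mir-1307 had 1854, 1085 and 1108 in mock, 5459, 2839 and 2553 in WT and 639, 703 and 688 in C352A. It had 1416, 1440.2 and 1329.9 in P351A and 4406, 7259.9 and 9398 in P351A plus ALA. WT and P351A plus ALA, which overlapped, lay above the other groups, and C352A lay below them all. mir-7974 had 404, 402 and 373 in mock, 506, 296 and 335 in WT and 413, 302 and 214 in C352A. It had 205, 212 and 257 in P351A and 212, 181 and 94.5 in P351A plus ALA, so WT and mock overlapped and both P351A groups lay below every library of those 2 groups. mir-4286 spread widely within groups, with 529, 328 and 346 in mock, 1802, 436 and 25.7 in WT and 30.7, 317 and 15.5 in C352A. It had 76.1, 124 and 124 in P351A and 57.9, 18.4 and 48.4 in P351A plus ALA, and the WT libraries overlapped those of every other group. mir-3605, at a 3′ splice site, had 252, 409 and 459 in mock, 338, 210.2 and 279.7 in WT and 222, 306 and 293 in C352A. It had 203, 187 and 148 in P351A and 324, 191 and 171 in P351A plus ALA; only P351A lay wholly below mock. mir-4454, which resembles a transfer RNA, had 250, 306 and 361 in mock, 398, 289 and 283 in WT and 132, 399 and 294 in C352A. It had 113, 145 and 139 in P351A and 128, 150.5 and 94.5 in P351A plus ALA, with both P351A groups below every WT library. mir-4435 (the same in both copies) had 147, 235 and 211 in mock, 155, 103 and 124 in WT and 127, 133 and 124 in C352A. It had 84.3, 77.8 and 71.3 in P351A and 247, 207 and 224 in P351A plus ALA, with P351A below all others. mir-6886 had 82, 99.8 and 113 in mock, 113, 72.4 and 91.3 in WT and 64.1, 84.3 and 54.8 in C352A. It had 73.3, 63.6 and 90.3 in P351A and 278, 269.9 and 74.5 in P351A plus ALA, and the third P351A plus ALA library lay among those of the other groups.

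**Figure D2:**
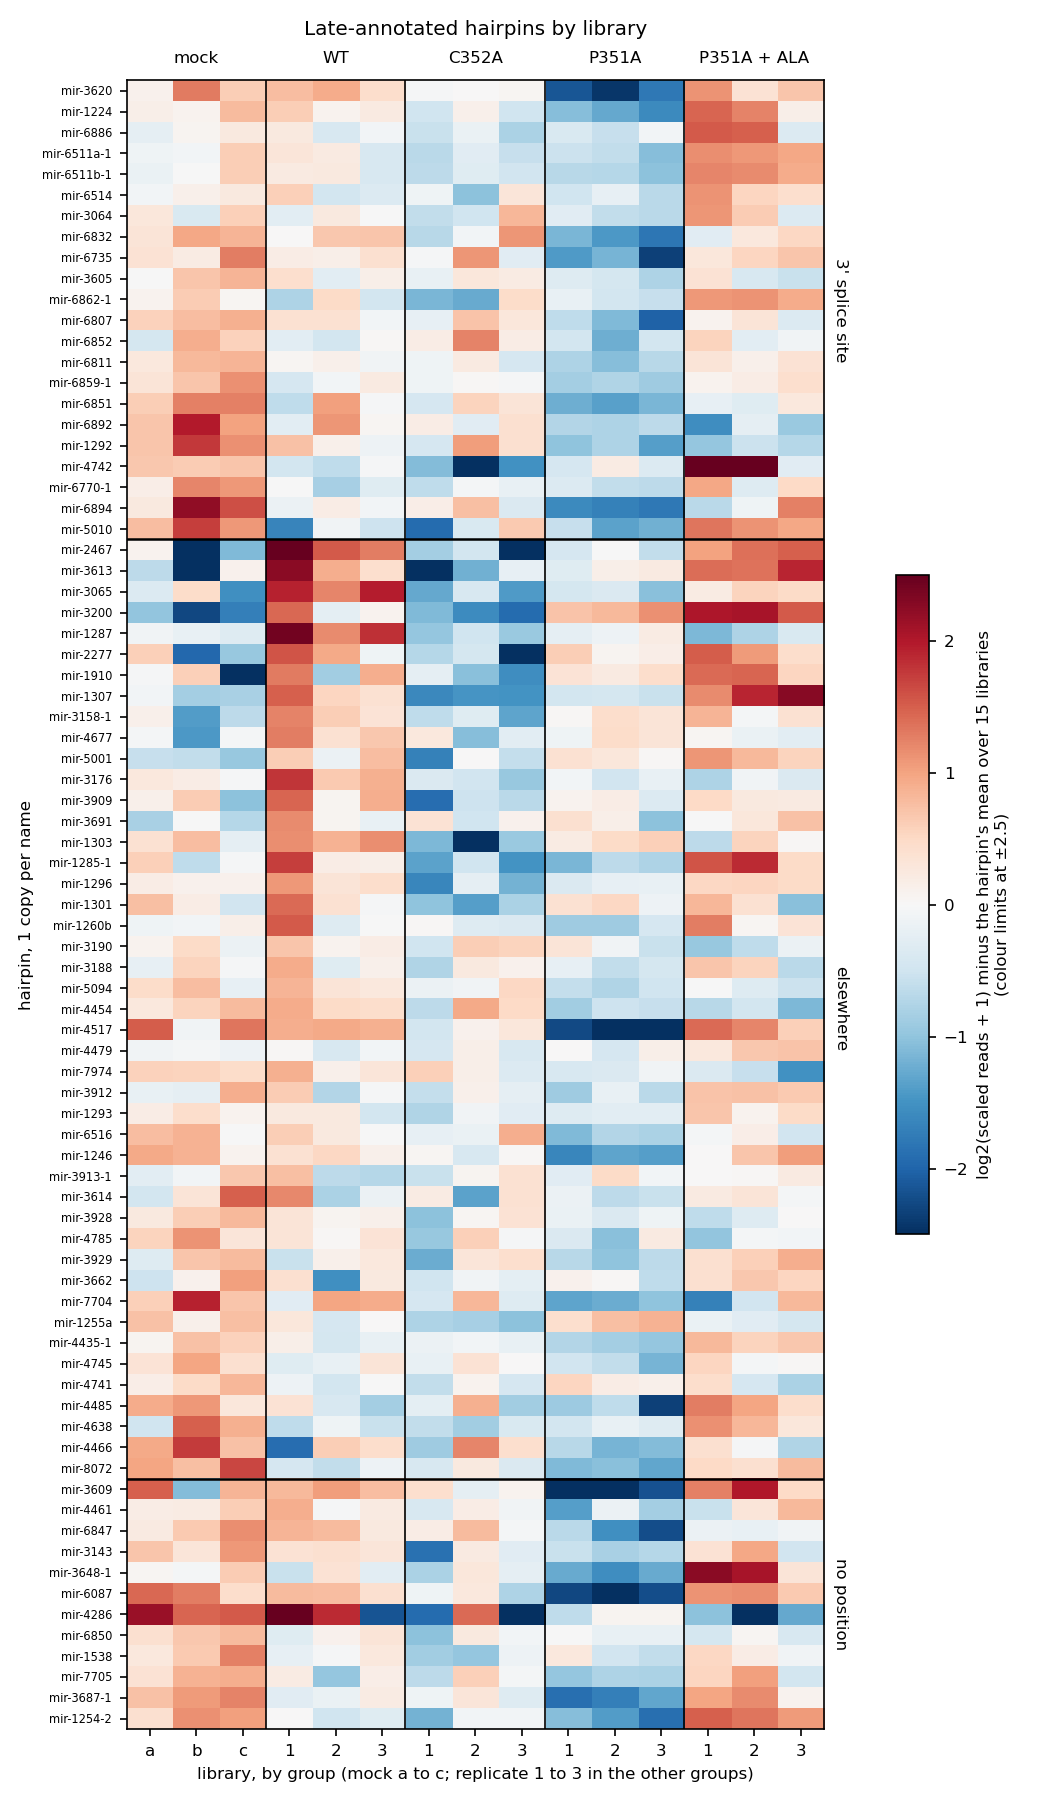
Level of each member name (rows, 1 copy per name) in each of the 15 rescue libraries (columns), as log2(scaled reads + 1) minus the hairpin's own mean; red is above and blue below that mean, and colours saturate at the ends of the scale. Rows are split by position and ordered by WT over mock. Rows high in WT sit at the top of the class elsewhere, and most rows of the 3′ splice site class are blue in P351A.

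Adding wild-type DGCR8 back to the deleted cells asks which small RNAs depend on it. Of the 95 members, 12 rose (11 names) and 15 fell (9 names) in WT over mock by limma at an adjusted p under 0.05. Over all 336 hairpins tested, 55.7% rose and 7.44% fell. The median log2 fold change was -0.32 over the members, 1.53 over the 241 other hairpins tested and 1.13 over all tested. Every member that rose was among the 51 counted elsewhere (12 of 51, with 2 falls, median -0.01). Of the 31 members at a 3′ splice site none rose and 10 fell (5 names, median -0.52) by limma; none rose at an unadjusted p under 0.05 or by edgeR or DESeq2. Of the 13 without a position none rose and 3 fell by limma (median -0.51), again with none rising at an unadjusted p under 0.05.

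The members that rose were hairpins inside introns, in exons or between genes, none of them ending at an intron end. mir-2467 had 7, 0 and 2.51 in mock and 41.4, 20.7 and 17.1 in WT (log2 fold change 3.07, SE 0.7, limma adjusted p = 0.0013), where mock holds only 8 reads in all. mir-2467, mir-3065 and mir-4677 reached the minimum through WT, with means of 7.03, 7.48 and 9.54 over the other 12 libraries, so their rises are a description. mir-3613, from the mir-15a and mir-16-1 host transcript, had 7, 0 and 12.5 in mock and 58.7, 22.4 and 15.7 in WT (log2 fold change 2.58, SE 0.78, limma adjusted p = 0.0082). mir-3065, which is transcribed opposite mir-338, had 7, 12.9 and 2.51 in mock and 37.4, 22.4 and 38.5 in WT (log2 fold change 2.17, SE 0.49, limma adjusted p = 0.0012). In all 3 every WT library lay above every mock library (66.7% of all hairpins tested did not overlap, in either direction). mir-3200 had 17, 6.44 and 10 in mock and 96.1, 29.3 and 37.1 in WT (log2 fold change 2.08, SE 0.42, limma adjusted p = 0.00048). mir-1287 had 21, 19.3 and 17.5 in mock and 123, 51.7 and 81.3 in WT (log2 fold change 2.01, SE 0.35, limma adjusted p = 0.00012). mir-1307 rose from 1349 ± 438 to 3617 ± 1602 scaled reads (mean ± SD, n = 3; log2 fold change 1.38, SE 0.33, limma adjusted p = 0.0016). These groups did not overlap either, with the first WT library the highest in each. The groups overlapped for mir-2277 alone among those that rose. The other 6 hairpins that rose, mir-2277, mir-3158-1, mir-3158-2, mir-4677, mir-5001 and mir-3176, had log2 fold changes of 0.96 to 1.58.

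The 9 names that fell included 5 at a 3′ splice site. mir-5010 had 26, 51.5 and 32.6 in mock and 4, 13.8 and 9.99 in WT (log2 fold change -1.96, SE 0.55, limma adjusted p = 0.0054). mir-8072, in an exon of SBNO1, had 23, 19.3 and 37.6 in mock and 8, 6.89 and 9.99 in WT (log2 fold change -1.53, SE 0.37, limma adjusted p = 0.0020). mir-6894 had 9, 38.6 and 25.1 in mock and 6.67, 8.61 and 7.13 in WT (log2 fold change -1.37, SE 0.56, limma adjusted p = 0.042). In these 3 the groups were separate, but mock library a lay close to WT for mir-6894. mir-8072 and mir-6894 reached the minimum through mock (means of 9.93 and 7.1 without it). Their falls, which stay in the counts above, are therefore a description. mir-6770-1, whose 3 copies share their reads, had 18, 38.6 and 35.1 in mock and 16, 8.61 and 12.8 in WT (log2 fold change -1.2, SE 0.41, limma adjusted p = 0.016). mir-1254-2 had 148, 251 and 231 in mock and 113, 79.3 and 91.3 in WT (log2 fold change -1.12, SE 0.35, limma adjusted p = 0.010). mir-3687-1, which resembles ribosomal RNA precursor, had 33, 41.9 and 47.6 in mock and 16, 17.2 and 22.8 in WT (log2 fold change -1.09, SE 0.36, limma adjusted p = 0.013). The others that fell were mir-6859 (4 copies, log2 fold change -0.81), the second copy of mir-3687, mir-4638 (-1.07) and mir-1292 (-0.96), and for the last 2 of these the groups overlapped.

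The split depended on the scale, the fit and single libraries. Without the filter on low values 8 members rose and 3 fell, and with only WT and mock fitted 8 rose and 5 fell. With libraries set level at their median hairpin (median centring), 6 members rose and 57 fell; with equal totals the counts were 1 and 74, and with edgeR's TMM 1 and 71. Of the 31 members at a 3′ splice site 26 fell with median centring and 30 with TMM, and none rose on either. The median of all 336 hairpins was 1.13 on the authors' scale and 0.42 with median centring. Under equal totals mir-1307 had a log2 fold change of -0.06. The members' median lay 1.85 log2 units below that of the other hairpins on the authors' scale and 1.79 to 1.85 below on those 3. Median centring moves all hairpins of a library by 1 amount and cannot change this gap. Equal totals and TMM also rescale whole libraries, so the steadiness of the gap is no check on the result. The count of members called was 14 without mock library c, 9 up and 5 down. mir-6894 lost its call without any 1 of mock libraries b and c or of the 3 WT libraries (adjusted p 0.054 to 0.19), mir-6770-1 without mock library b or c or the second WT library (0.058 to 0.071) and mir-3613 without mock library b (limma adjusted p = 0.061).

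**Figure D3:**
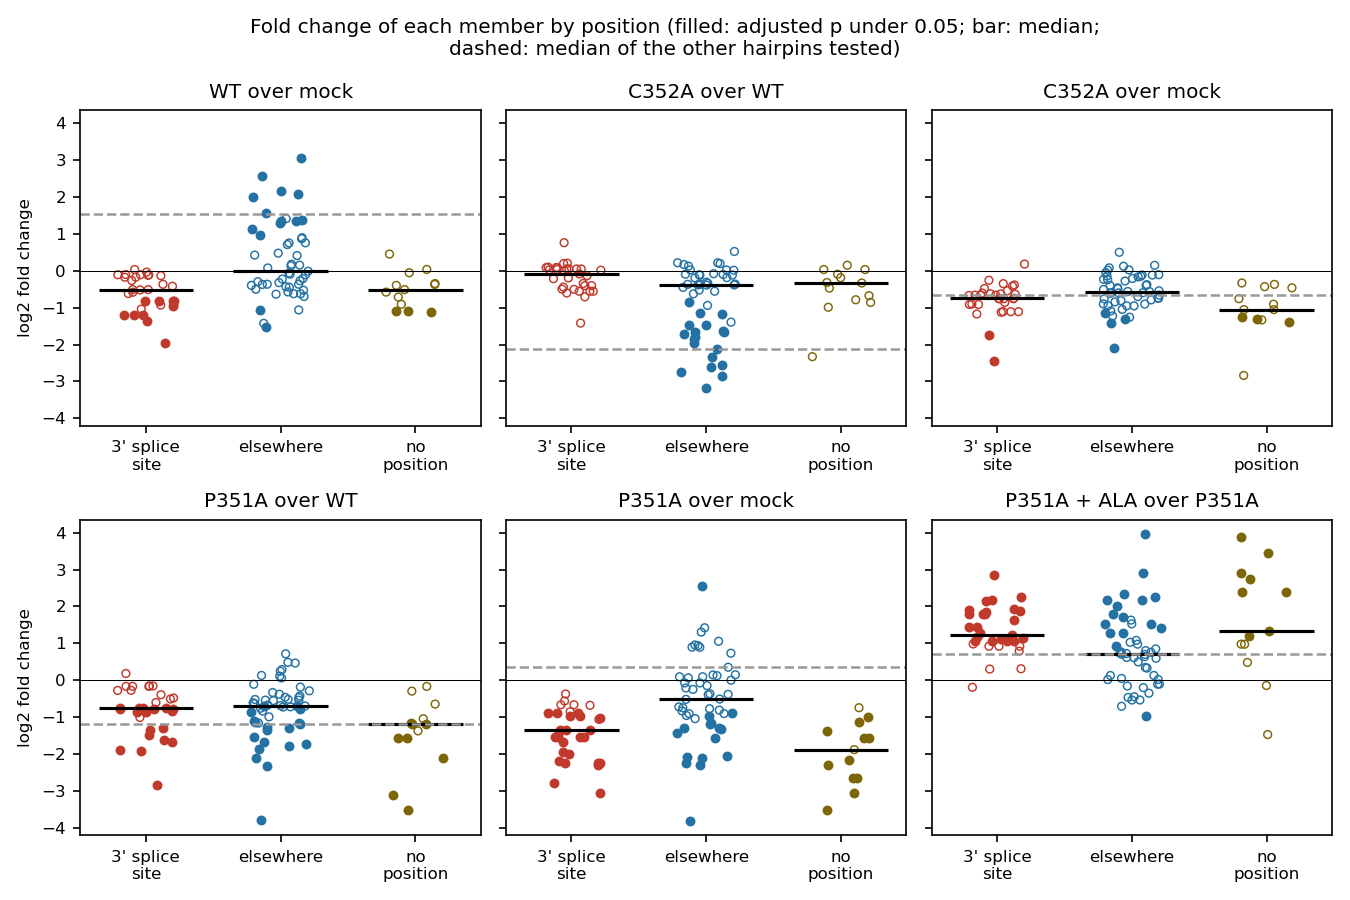
Log2 fold change (y axis, from limma on log2(scaled reads + 1)) of each member in the 6 comparisons, by position class: 31 at a 3′ splice site, 51 elsewhere and 13 with no position. Filled points passed an adjusted p of 0.05, bars are class medians and the dashed line is the median of the 241 other hairpins tested. In WT over mock the dashed line lies at 1.53 and all rises are among members elsewhere; in C352A over WT it lies at -2.12 and all falls are among members elsewhere.

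The C352A form, with alanine in place of a cysteine of DGCR8, was set against WT. Of the 95 members none rose and 19 fell (17 names) by limma, where over all hairpins tested 0% rose and 65.5% fell. None of the members rose at an unadjusted p under 0.05 in limma, or by edgeR or DESeq2 on the authors' scale. The median log2 fold change was -0.36 over the members and -2.12 over the other hairpins tested. All 19 falls were among the 51 members elsewhere (median -0.39). Of the 31 at a 3′ splice site none fell by limma (median -0.08, range -1.42 to 0.76), none at an unadjusted p under 0.05, and none by edgeR or DESeq2. Of the 13 without a position none fell by limma, 2 did at an unadjusted p under 0.05, and 1 fell by edgeR and by DESeq2 (median -0.33).

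mir-2467 had 41.4, 20.7 and 17.1 in WT and 3.16, 4.44 and 0 in C352A (log2 fold change -3.17, SE 0.7, limma adjusted p = 0.00060). mir-1303, between genes, had 21.3, 17.2 and 21.4 in WT and 3.61, 0 and 4.22 in C352A (log2 fold change -2.86, SE 0.55, limma adjusted p = 0.00017). mir-3065 had 37.4, 22.4 and 38.5 in WT and 3.16, 6.66 and 2.81 in C352A (log2 fold change -2.73, SE 0.49, limma adjusted p = 9.0e-05). All C352A libraries lay below all WT libraries for these 3 (66.7% of all hairpins tested did not overlap). These 3 and mir-4677 reached the minimum through WT (mean of 9.12 without it for mir-1303), so these falls are a description. mir-1287 had 123, 51.7 and 81.3 in WT and 10.8, 15.5 and 11.3 in C352A (log2 fold change -2.6, SE 0.35, limma adjusted p = 4.7e-06). mir-3613 had 58.7, 22.4 and 15.7 in WT and 0.903, 4.44 and 9.84 in C352A (log2 fold change -2.57, SE 0.78, limma adjusted p = 0.0072). mir-1307 fell from 3617 ± 1602 to 677 ± 33.9 scaled reads (mean ± SD, n = 3; log2 fold change -2.33, SE 0.33, limma adjusted p = 7.7e-06). Again no library overlapped. The 13 other falls, among them mir-2277, mir-3200, mir-3909, mir-3176, mir-1301, mir-1296 and both copies of mir-1285 and mir-3158, had log2 fold changes of -2.12 to -0.84, and libraries overlapped in 1 of them, mir-5001. In the 3′ splice site class, mir-3605 had 276 ± 63.8 in WT and 274 ± 44.9 in C352A, and mir-6859 had 39.6 ± 8.92 and 40.4 ± 1.93.

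On other scales the direction turned: 60 members rose and 5 fell with median centring, 63 and 5 with equal totals, and 70 and 2 with TMM. At 3′ splice sites 25 of 31 rose with median centring and 30 with TMM, and none fell on either. The members' median lay 1.76 log2 units above that of the other hairpins on the authors' scale and 1.74 to 1.81 above on those 3. A change of scale hardly moves such a gap, so this is no check. The call for mir-3613 was lost without the first C352A library (log2 fold change -1.90, limma adjusted p = 0.053).

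C352A was also set against mock, which asks what that form adds to the deleted cells. Of the 95 members none rose and 9 fell by limma, against 0.595% and 14.3% of all hairpins tested. None of the members rose at an unadjusted p under 0.05 in limma, or by edgeR or DESeq2. The members' median log2 fold change of -0.66 equalled that of the other hairpins tested. By position, 2 of 31 at a 3′ splice site fell (median -0.75), 4 of 51 elsewhere (-0.56) and 3 of 13 without a position (-1.05). mir-4742, in an intron of WDR26, had 10, 9.66 and 10 in mock and 2.26, 0 and 1.41 in C352A (log2 fold change -2.46, SE 0.67, limma adjusted p = 0.026). mir-1303 had 12, 16.1 and 7.52 in mock and 3.61, 0 and 4.22 in C352A (log2 fold change -2.1, SE 0.55, limma adjusted p = 0.026). mir-5010 had 26, 51.5 and 32.6 in mock and 3.16, 11.1 and 23.9 in C352A (log2 fold change -1.75, SE 0.55, limma adjusted p = 0.041). These rest on few reads, with a C352A library at 0 for mir-4742 and mir-1303. mir-1255a, in an intron of PPP3CA, a calcineurin gene, had 55, 35.4 and 55.1 in mock and 18.5, 17.8 and 15.5 in C352A (log2 fold change -1.42, SE 0.3, limma adjusted p = 0.0065). mir-1538 had 17, 22.5 and 35.1 in mock and 7.22, 6.66 and 12.7 in C352A (log2 fold change -1.38, SE 0.39, limma adjusted p = 0.026). mir-8072 had 23, 19.3 and 37.6 in mock and 8.12, 13.3 and 8.44 in C352A (log2 fold change -1.31, SE 0.37, limma adjusted p = 0.026). Groups did not overlap in any of these, as in 41.4% of all hairpins tested. Since mir-8072 reached the minimum through mock, its fall is a description. The others were mir-1254-2 (-1.3), mir-6087 (-1.25) and mir-1296 (-1.15).

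These calls were not stable. No member was called with median centring or TMM (by limma 2 rose and 4 fell at an unadjusted p under 0.05 with centring, by edgeR 1 and 1 with TMM), and 5 fell with equal totals. The count was 2 without mock library b, 3 without mock library c and 3 without the first C352A library. Of the 6 members with values above, mir-1255a alone kept its call without each library in turn. mir-4742, mir-1303, mir-5010, mir-1538 and mir-8072 each lost it without at least 2 single libraries (limma adjusted p 0.051 to 0.15).

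The P351A form, with alanine in place of the proline beside that cysteine, was set against WT next. Of the 95 members, none rose and 45 fell (34 names) in P351A over WT by limma, against 3.27% up and 51.2% down over all hairpins tested. At an unadjusted p under 0.05 in limma 1 member rose, by edgeR 1 rose, and by DESeq2 none. The median log2 fold change was -0.74 over the members and -1.19 over the other hairpins tested. The 3′ splice site class had 18 falls of 31 (12 names, median -0.74), the members elsewhere 19 of 51 (-0.69) and those without a position 8 of 13 (-1.2). mir-4517 had 20, 20.7 and 20 in WT and 1.37, 0 and 0.488 in P351A (log2 fold change -3.8, SE 0.47, limma adjusted p = 3.7e-06), with 4 reads in all in P351A. mir-3609 had 14.7, 17.2 and 14.3 in WT and 0.458, 0 and 0.976 in P351A, from 31 and 3 reads, a ratio of WT to P351A of 34.1 with a 95% counting interval of 10.6 to 174. mir-6087, which resembles ribosomal RNA precursor, had 22.7, 22.4 and 17.1 in WT and 1.83, 0.81 and 1.95 in P351A (log2 fold change -3.12, SE 0.4, limma adjusted p = 5.2e-06). These 3 were close to 0 in P351A, whose libraries were among the deepest. mir-3620, at a 3′ splice site in ARF1, had 30.7, 34.5 and 24.3 in WT and 3.21, 2.43 and 4.39 in P351A (log2 fold change -2.84, SE 0.36, limma adjusted p = 5.2e-06). mir-3065 had 37.4, 22.4 and 38.5 in WT and 6.42, 6.89 and 3.9 in P351A (log2 fold change -2.32, SE 0.49, limma adjusted p = 0.00079). mir-2467 had 41.4, 20.7 and 17.1 in WT and 4.58, 6.48 and 3.9 in P351A (log2 fold change -2.11, SE 0.7, limma adjusted p = 0.018). No library overlapped in any of the 6, as for 64.9% of all hairpins tested in either direction. Since mir-3065 and mir-2467 reached the minimum through WT, their falls are a description. Among the other falls were mir-6847 (-2.1), mir-6832 (-1.92), mir-6735 (-1.88), mir-1246 (-1.78), mir-1224 (-1.63), mir-1307 (-1.29), mir-4454 (-1.27) and the copies of mir-6511a (-0.78) and mir-6859 (-0.74). In the 6 P351A libraries with and without ALA mir-373 and mir-223 were at 0, and their part in these falls was not tested.

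Most falls lost their call on other scales, with 6 members up and 7 down with median centring and 4 and 9 with equal totals, and the direction turned with TMM, with 37 up and 5 down. At 3′ splice sites 12 rose and 1 fell with TMM. The members' median lay 0.45 log2 units above that of the other hairpins on the authors' scale and 0.35 to 0.45 above on those 3, a gap that a change of scale hardly moves. The count of falls was 29 without the second WT library, 28 without the second P351A library and 23 without the third. mir-2467 lost its call without the first WT library or the third P351A library (limma adjusted p 0.071 and 0.059).

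Against mock, 1 member rose and 50 fell (38 names) in P351A by limma, where 22.6% of all hairpins tested rose and 25.9% fell, 48.5% in all. The median was -0.97 over the members and 0.37 over the other hairpins tested. At 3′ splice sites 24 of 31 fell (16 names, median -1.36), elsewhere 15 of 51 (-0.51) and without a position 11 of 13 (-1.88). The member that rose was mir-3200, with 17, 6.44 and 10 in mock and 57.7, 62 and 78.6 in P351A (log2 fold change 2.55, SE 0.42, limma adjusted p = 0.00012). mir-4517 had 31, 9.66 and 27.6 in mock (log2 fold change -3.81, SE 0.47, limma adjusted p = 6.6e-06), and mir-6087 36, 32.2 and 17.5 (log2 fold change -3.52, SE 0.4, limma adjusted p = 2.8e-06). mir-3609 had 24, 3.22 and 15 in mock, a ratio of mock to P351A of 40.5 with a 95% counting interval of 12.6 to 207. All of these were apart from P351A in every library, as 65.8% of all hairpins tested were. mir-6894 had 9, 38.6 and 25.1 in mock and 1.83, 1.62 and 1.46 in P351A (log2 fold change -3.05, SE 0.56, limma adjusted p = 0.00031). mir-3620 had 19, 45.1 and 27.6 in mock (log2 fold change -2.8, SE 0.36, limma adjusted p = 1.2e-05). mir-3687-1 had 33, 41.9 and 47.6 in mock and 4.58, 5.27 and 7.32 in P351A (log2 fold change -2.64, SE 0.36, limma adjusted p = 1.7e-05). P351A was thus below mock in every library for each. Of the 50 falls, 7 were of members that reached the minimum through mock: mir-6516, mir-6807, mir-6832, mir-6851, mir-6892, mir-6894 and mir-8072. The falls of these 7 are a description. Further falls at 3′ splice sites were those of mir-6851 (-2.29), mir-1292 (-2.25), mir-6735 (-2.25), mir-5010 (-2.23), mir-6832 (-2.18), mir-6807 (-2), mir-6892 (-1.94), mir-1224 (-1.66) and mir-3605 (-1.02). On other scales 5 rose and 42 fell with median centring, 1 and 73 with equal totals, and 4 and 41 with TMM. P351A over WT and P351A over mock share the P351A libraries.

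In P351A cells with ALA over P351A cells without it, 46 members rose (34 names) and 1 fell by limma, against 44.6% and 2.98% of all hairpins tested. The median log2 fold change was 1.06 over the members and 0.71 over the other hairpins tested. At 3′ splice sites 23 of 31 rose (16 names, median 1.23), elsewhere 15 of 51 with 1 fall (0.72) and without a position 8 of 13 (1.33). mir-4517 had 1.37, 0 and 0.488 in P351A and 29, 25.3 and 16.1 in P351A plus ALA (log2 fold change 3.97, SE 0.47, limma adjusted p = 5.3e-06). mir-3609 had 0.458, 0 and 0.976 in P351A and 20.4, 34.5 and 11.5 in P351A plus ALA, a ratio of 46.0 with a 95% counting interval of 15.1 to 229. mir-6087 had 1.83, 0.81 and 1.95 in P351A and 29, 29.9 and 20.7 in P351A plus ALA (log2 fold change 3.46, SE 0.4, limma adjusted p = 4.5e-06). Of the rises, those of mir-3609 and mir-4742 were of members that reached the minimum through P351A plus ALA, and are a description. The 3 that were near 0 in P351A thus lay in the range of the WT and mock libraries or above it with ALA. mir-3648-1, which resembles ribosomal RNA precursor, had 16, 13 and 16.1 in P351A and 194, 169 and 49.9 in P351A plus ALA (log2 fold change 2.9, SE 0.45, limma adjusted p = 5.4e-05). mir-3620 had 3.21, 2.43 and 4.39 in P351A and 39.7, 23 and 29.2 in P351A plus ALA (log2 fold change 2.85, SE 0.36, limma adjusted p = 9.1e-06). mir-1254-2, at 48.7, 107 and 107 in C352A, had 53.2, 42.1 and 29.8 in P351A and 319, 285 and 236 in P351A plus ALA (log2 fold change 2.74, SE 0.35, limma adjusted p = 9.1e-06). The groups were separate in all 6, as for 70.2% of all hairpins tested. mir-1307 rose from 1395 ± 58 to 7021 ± 2505 scaled reads (mean ± SD, n = 3; log2 fold change 2.26, SE 0.33, limma adjusted p = 3.7e-05). At 3′ splice sites mir-1224 had 11, 9.32 and 7.32 in P351A and 67.6, 58.6 and 26.9 in P351A plus ALA (log2 fold change 2.26, SE 0.37, limma adjusted p = 0.00010). mir-6511a had 39, 36.9 and 26.8 in P351A and 129, 122 and 112 in P351A plus ALA (log2 fold change 1.81, SE 0.3, limma adjusted p = 0.00010). The hairpin mir-6511b-1, whose 3p arm has the same seed, had a log2 fold change of 1.92. Its read counts with ALA (120, 110 and 137) were close to those of mir-6511a (120, 106 and 146), so it is no separate result. mir-1255a was the member that fell, with 44, 55.1 and 60 in P351A and 29, 26.4 and 23.8 in P351A plus ALA (log2 fold change -0.97, SE 0.3, limma adjusted p = 0.014).

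With median centring 15 rose and 18 fell, with equal totals 24 and 6, and with TMM 17 and 20. At 3′ splice sites 5 rose and 1 fell with TMM. The members' median lay 0.35 log2 units above that of the other hairpins on the authors' scale and 0.31 to 0.35 above on those 3. Here too a change of scale hardly moves the gap. mir-1255a lost its call without the third P351A library (limma adjusted p = 0.056).

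**Figure D4:**
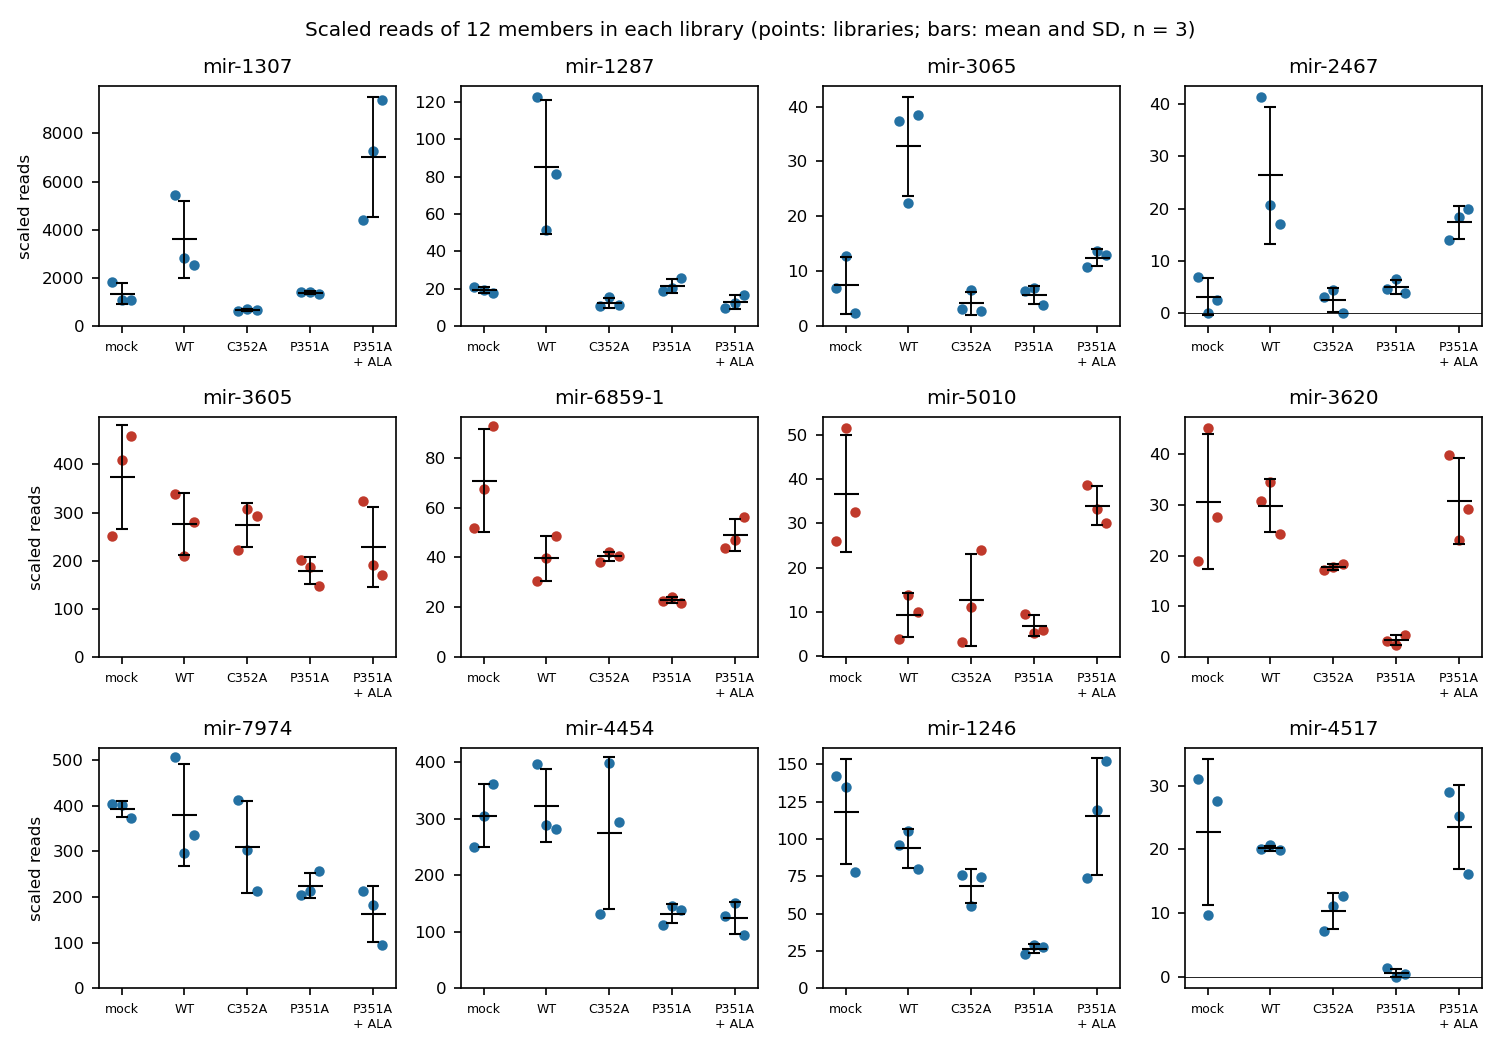
Scaled reads (linear y axis from 0 or below, where an SD reaches under it) of 12 members in each library; points are libraries, bars are mean and SD (n = 3). Blue members lie away from intron ends and red ones at a 3′ splice site. For mir-1287 and mir-3065 the WT libraries lie above all others, for mir-3620 and mir-4517 the P351A libraries lie below all others, and mir-6859-1 has its highest mean in mock.

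The order of groups on the authors' scale differed between members. mir-1287 had means of 19.3 ± 1.73 in mock, 85.3 ± 35.7 in WT, 12.5 ± 2.6 in C352A, 21.6 ± 3.73 in P351A and 13.1 ± 3.64 in P351A plus ALA (mean ± SD, n = 3 each). Its WT libraries alone stood apart, and the log2 fold change with ALA was -0.71, which did not pass limma (adjusted p = 0.100). mir-3200 had 11.2 ± 5.37 in mock, 54.1 ± 36.5 in WT, 11.8 ± 3.73 in C352A, 66.1 ± 11 in P351A and 132 ± 24.9 in P351A plus ALA. Its P351A and WT libraries overlapped, and its P351A plus ALA libraries lay above all others. mir-6859 had 70.8 ± 20.6 in mock, 39.6 ± 8.92 in WT, 40.4 ± 1.93 in C352A, 22.9 ± 1.24 in P351A, and 49.1 ± 6.29 with ALA. Its P351A libraries lay below every other library, while the WT libraries overlapped those of C352A and of P351A plus ALA.

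A list of 14 names of hairpins that lie in or resemble another stable RNA was drawn from general knowledge. Earlier results of these data were known when it was drawn. Of these names 12 were in the table and 7 reached the mean of 10. They gave 9 member hairpins: mir-1246, mir-1260b, mir-4454, both copies of mir-3648 and of mir-3687, mir-6087 and mir-4485. The list is not complete: mir-6516, which overlaps the small RNA gene SCARNA16, was not on it and is not among the 9. Its mean was 15.8 in mock, 12.7 in WT, 12.4 in C352A, 5.05 in P351A and 9.35 in P351A plus ALA. In WT over mock none of the 9 rose and 2 (the copies of mir-3687) fell by limma, with the same counts at an unadjusted p under 0.05, against 55.7% up and 7.44% down over all hairpins tested. On other scales 7 fell with median centring, 9 with equal totals and 8 with TMM. In P351A over WT 8 of 9 fell (6 of 7 names, median log2 fold change -1.27), against 51.2% of all tested. On other scales 1 fell with median centring, 2 with equal totals and 1 with TMM. In P351A over mock 8 of 9 fell (6 of 7 names, median -2.05), against 25.9% of all tested, and 8, 9 and 8 on those scales. With ALA 8 of 9 rose (6 of 7 names, median 2.39), against 44.6% of all tested. On those scales 5 rose and 1 fell with median centring, 7 rose with equal totals, and 6 rose and 1 fell with TMM. mir-1246 had 142, 135 and 77.7 in mock, 96.1, 105 and 79.9 in WT and 75.8, 55.5 and 74.5 in C352A. It had 22.9, 28.8 and 27.8 in P351A and 74, 119 and 152 in P351A plus ALA. Its P351A libraries lay below every other library. mir-4485 had 8.25, 10.1 and 2.44 in P351A and 40.8, 33.3 and 22.3 in P351A plus ALA (log2 fold change 2.19, SE 0.52, limma adjusted p = 0.0021), and mir-4454 was the 1 name that did not rise with ALA, at -0.11. C352A over WT called none of the 9 by limma (65.5% of all tested fell), with 1 fall at an unadjusted p under 0.05 and none by edgeR or DESeq2, while 8 rose with median centring, 8 with equal totals and 9 with TMM.

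Of 8 early-named mirtrons, mir-1224 alone was a member. The other 7 had means of 0.031 (mir-1237) to 9.62 (mir-1229) scaled reads and are not described. mir-1224 had 27, 25.8 and 42.6 in mock, 37.4, 25.8 and 28.5 in WT and 16.7, 26.6 and 16.9 in C352A. It had 11, 9.32 and 7.32 in P351A and 67.6, 58.6 and 26.9 in P351A plus ALA. WT and mock overlapped (log2 fold change -0.03, SE 0.37, limma adjusted p = 0.93), and P351A lay below every other library. mir-6807, the second member with both ends at intron ends, had 14, 16.1 and 17.5 in mock, 12, 12.1 and 8.56 in WT and 7.67, 15.5 and 11.3 in C352A. It had 5.5, 3.65 and 1.46 in P351A and 9.65, 11.5 and 6.92 in P351A plus ALA, again with P351A lowest.

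The parental and dCTT libraries, 1 each, show the deletion itself, with no replicate check and no test. The table lists 294 hairpins, all with at least 50.7 in the higher of the 2 libraries, and 41 members (34 names) are among them. The parental value was at least 4-fold higher in 24 of the 41 and lower in 11, against 87.4% and 6.12% of all listed hairpins. The median log2 ratio on values plus 1 was 3.02 over the listed members and 5.59 over the 253 other listed hairpins. The 5 listed hairpins at a 3′ splice site (mir-6886, mir-3605 and 3 copies of mir-6511a) were all lower in parental cells, at -1.12 to -0.08, and the copies of mir-6511a, which share their reads, by less than counting error. The 32 elsewhere had a median of 4.63.

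mir-1307 had 9279 scaled reads in parental and 170 reads in dCTT cells, a ratio of 54.6 (95% interval 47 to 63.8, which like those below covers counting error of the dCTT count only). mir-7974 had 3031 scaled reads in parental and 372 reads in dCTT cells, a ratio of 8.15 (7.36 to 9.04). mir-3158-1 had 468 scaled reads in parental and 7 reads in dCTT cells, a ratio of 66.8 (32.4 to 166). The first 2 of these were the most abundant listed members in parental cells. mir-2277 had 169 against 0 reads, at least 56.3-fold higher on a floor of 3 reads in the dCTT library, and mir-1303 52.6 against 0, at least 17.5-fold higher. mir-3605 had 169 scaled reads in parental and 309 reads in dCTT cells, a ratio of 0.546 (0.489 to 0.613). mir-6886 had 27.6 scaled reads in parental and 61 reads in dCTT cells, a ratio of 0.452 (0.352 to 0.591). These hairpins at 3′ splice sites were lower in the library with intact DGCR8 than in the deleted one. mir-6511a, the same in all 4 copies, had 50.1 scaled reads in parental and 53 reads in dCTT cells, a ratio of 0.944 (0.722 to 1.26). mir-4745, whose 5′ end is at an intron end, had 80.9 scaled reads in parental and 67 reads in dCTT cells, a ratio of 1.21 (0.95 to 1.56); both intervals span equal levels. mir-4286 had 107 scaled reads in parental and 306 reads in dCTT cells, a ratio of 0.348 (0.311 to 0.391), the lowest of the members listed. Others lower in parental cells were mir-4741, both copies of mir-4435 and mir-1260b. Among members that resemble another RNA, mir-4454 had 651 scaled reads in parental and 116 reads in dCTT cells and mir-3648-1 110.4 scaled reads in parental and 28 reads in dCTT cells. On a scale that sets the median of all listed hairpins level, the members' median was -2.52 and 32 of 41 were lower in parental cells.

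**Figure D5:**
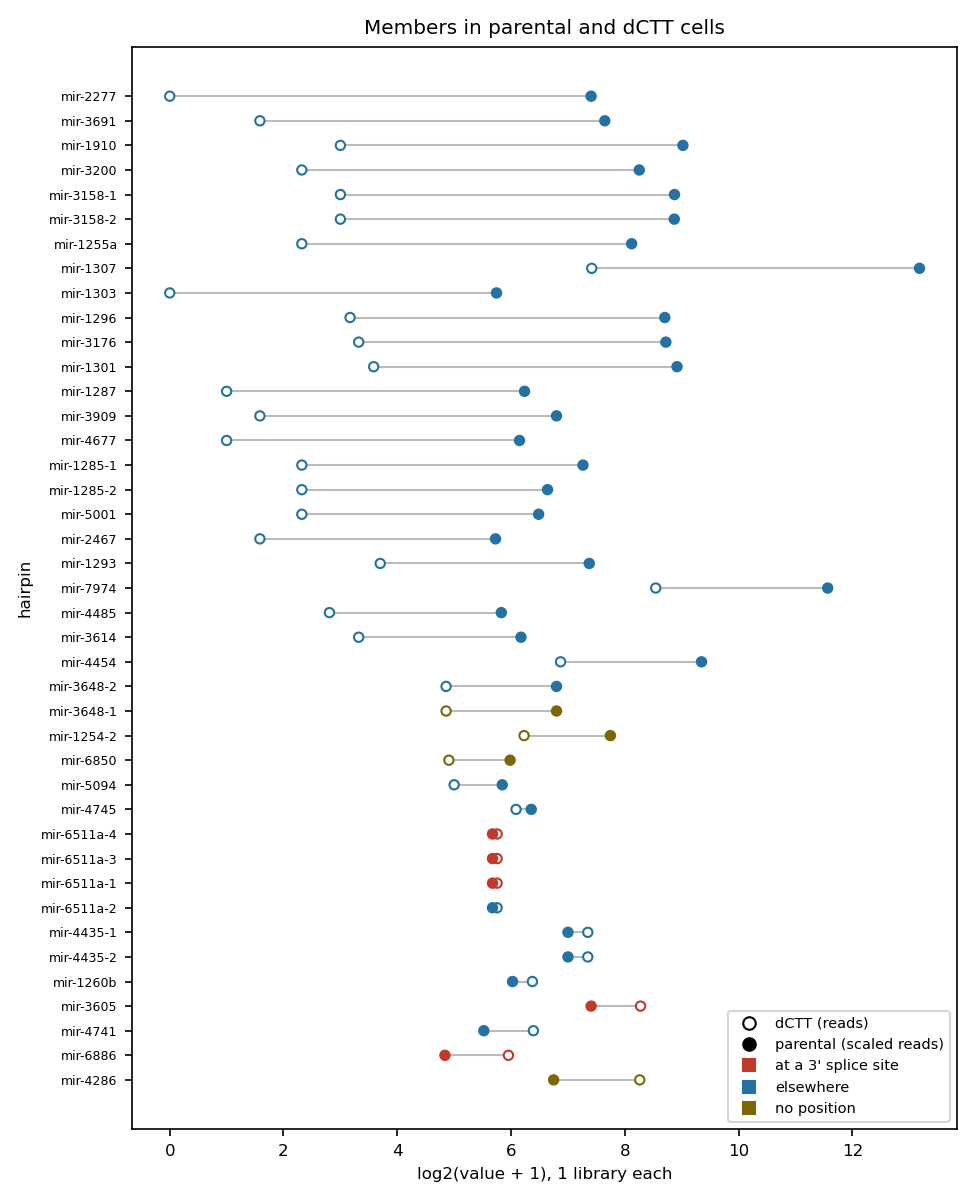
The 41 listed members in the parental library (filled, scaled reads) and the dCTT library (open, reads) on a log2(value + 1) axis, ordered by their ratio and coloured by position; 1 library each. The 5 hairpins at a 3′ splice site have their parental point left of the dCTT point, and most members elsewhere have it far to the right.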

How the data were processed

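Small RNA was extracted with TRIzol, cut from a urea gel at small RNA size and prepared with the TruSeq Small RNA kit, per the labels' protocols. Adapters were trimmed with cutadapt 1.14 and reads were aligned with Bowtie2 to hg38/GRCh38, per the submitters' processing notes; how reads that fit several hairpins were counted is not given in the sources used here. Values of the rescue table are deposited as signal, hairpin reads multiplied by 1 factor per library (scaled reads). The deposited table of parental and dCTT cells holds read counts for dCTT cells and scaled signal for parental cells, and its depth in parental cells is unknown. Whole reads were recovered from the rescue values: 100% were within 0.001 of a read over 15 libraries.

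The fit was limma 3.58.1 (moderated, with a mean trend) in R 4.3.3 on log2(scaled reads + 1), a pseudocount of 1, with group alone as a term, over all 15 rescue libraries and the 336 hairpins with a mean of 10 or more; fold changes are on that scale and understate those of low hairpins. P-values were adjusted by Benjamini and Hochberg over the 336, with a threshold of 0.05. Scripts were tested on simulated data. Alternatives were median centring, equal totals, no filter, a pseudocount of 10, only the 2 groups compared, edgeR 4.0.16 (quasi-likelihood) and DESeq2 1.42.0 on the recovered reads, each library left out and a replicate block. Positions are from GENCODE release 29 (GRCh38) and sequences from RefSeq GRCh38.p14. Intervals have a 95% level and cover counting error only; the floor for a count of 0 is 3 reads.

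Named hairpins were to be every member called, the 8 most abundant, those listed in the parental and dCTT table and those of 2 name lists. Library values are given for the up to 6 largest rises and falls per comparison whose libraries did not overlap, 1 copy per name, and for the 8 most abundant, with a few others; the rest are given by range, count or fold change. The members and lists were chosen with earlier results of these data known, and the grouping by intron end was added after values were seen. Replicate numbers are on the labels of the WT, C352A, P351A and ALA libraries and were matched to their columns. The columns used for mock are headed KO with a number, while the mock samples are titled Ctrl. Taking KO as the mock rescue is an inference from the names, on which every comparison with mock rests. Their numbers could not be matched to samples, so these columns are called a, b and c. Deviations of same-numbered C352A and WT libraries correlated at 0.425, 0.185 and 0.289. Differently numbered pairs of these groups ran from -0.398 to 0.273. The highest of them, the third C352A with the second WT library, lay above the same-numbered pair at 0.185. Whether libraries of 1 number belong together was not tested, and the main fit does not pair them.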

Additional observations from a re-analysis of the deposited data

How the results depend on the processing

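On other scales the number of members called, in both directions, was 63 with median centring, 75 with equal totals and 72 with edgeR's TMM in WT over mock, against 27. It was 65, 68 and 72 in C352A over WT, against 19, and 0, 5 and 0 in C352A over mock, against 9. In P351A over WT it was 13 with median centring and 13 with equal totals, against 45, and with ALA 30 with equal totals, against 47. Without a filter on low values 11 members were called in WT over mock (8 up and 3 down), 2 in C352A over mock and 24 in P351A over WT. With only the 2 groups fitted 13 were called in WT over mock (8 up and 5 down). The cause of these changes was not tested. Leaving out 1 library at a time gave 14 to 31 calls in WT over mock, 16 to 22 in C352A over WT, 2 to 9 in C352A over mock, 23 to 39 in P351A over WT, 40 to 56 in P351A over mock and 37 to 48 with ALA. The parental median moved to -2.52 with median centring and to 2.39 with a pseudocount of 10. The log2 fold change of mir-1307 in WT over mock was -0.063 with equal totals (limma adjusted p = 0.82). Of 44 hairpin results with their values above, 23 kept direction and call under every alternative run and 21 lost the call or turned under at least 1.

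With a replicate block 20 members were called in C352A over WT, 44 in P351A over WT and 48 with ALA (47 up and 1 down), and the block ended no call among the 19 results named with it. Same-numbered libraries correlated at -0.345, -0.240 and -0.135 for P351A and WT and at 0.259, -0.034 and 0.051 for ALA and P351A. Whether they share more than a number was not tested. No paired analysis was possible for the 3 comparisons with mock, since the mock columns could not be matched to numbered samples. None was possible for the parental and dCTT libraries either, with 1 sample each.

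Depth limits the low members most: in mock library b 1 read is worth 3.22 scaled reads, and a member with a mean near 10 rests there on a few reads.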

Other observations

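Some members differed between the 3 P351A plus ALA libraries, reported here as values with no test. mir-4742, at a 3′ splice site, had 45.1 and 40.2 scaled reads in the first and second of these libraries and 4.61 in the third. mir-6886 had 278 and 269.9 in those 2 libraries and 74.5 in the third, and mir-3648-1 had 194, 169 and 49.9.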
